A study of Mus musculus with 4 samples.

Results

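The replication-dependent histone genes of the mouse make the bulk histones that package new DNA, and lie in clusters that hold genes of all 5 histone classes. They were taken here as every gene of the deposited count table whose symbol starts with Hist1h, Hist2h, Hist3h or Hist4h, or carries one of the newer names of the same genes. This gave 70 genes of the 56239 in the table, namely 6 genes of the linker histone H1, 20 of H2A, 19 of H2B, 12 of H3 and 13 of H4. The Hist1 cluster on chromosome 13 held 56 of them, Hist2 on chromosome 3 held 10, Hist3 on chromosome 11 held 3 and Hist4 on chromosome 6 held 1 (GRCm38). The rule reads names only and uses no expression value, so it also takes in loci annotated as pseudogenes, namely Hist1h2aj, Hist1h2al and Hist3h2bb-ps.

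Most messenger RNAs end in a poly(A) tail, but the RNAs of these genes are usually cut just past a short stem-loop, with the help of the stem-loop binding protein SLBP and the U7 small nuclear ribonucleoprotein, and carry no tail. They are made mainly in S phase and are removed quickly when DNA synthesis stops. Many of the genes can also make a longer RNA that runs past the stem-loop to an ordinary poly(A) signal, a form known from cells that have left the cell cycle. The newly made H3 and H4 proteins are passed by chaperones to chromatin assembly factor 1, which places them on copied DNA.

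The samples were CD4+CD8+ double-positive (DP) thymocytes, the large precursor population of the T cell lineage, sorted from C57BL/6 thymus. The 2 WT libraries came from mice with floxed Chaf1b alleles and no Cre (CHAF1bfloxp/floxp), and the 2 KO libraries from mice with the same alleles and Cd4-cre, which drives Cre from Cd4 regulatory elements and so acts in T lineage cells from about the DP stage on. Chaf1b makes p60, a subunit of chromatin assembly factor 1. The title names early development of iNKT cells, T cells that branch off at the DP stage. Age is not given in the sources used here. Per the labels' protocols, RNA was selected on poly-T beads before library preparation, a step that favours tailed RNA. Library totals ran from 21068760 to 27369874 counts. All 11 DP marker genes used, Cd4, Cd8a, Rag1 and Rag2 among them, were measured, and together they stood at 17559 to 23002 counts scaled to library size (CPM). The summed markers of B cells stood at 1.19 to 2.64 normalised CPM and those of macrophages and granulocytes at 6.96 to 10.5. Those of erythroid cells stood at 0.416 to 1.59 and those of thymic epithelium at 7.89 to 8.95. KO replicate 1 stood apart, with 3.3% of its counts in 37 mitochondrial genes, against 2.03% in KO replicate 2 and 1.33% and 1.45% in the WT libraries. In both genotypes replicate 1 was female and replicate 2 male by Xist and Ddx3y, so libraries of 1 genotype came from different animals. The number of mice behind a library is not stated, and p-values measure only the spread between these libraries.

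The annotated transcripts were searched for both kinds of 3′ end. A stem-loop match was defined as a run of 16 bases (GG, 3 bases, TT, 1 base, T, 1 base, A, 3 bases and CC) read on the transcript's own strand, with all 6 stem bases paired. It was found in the GENCODE M21 transcript of 45 of the 70 members, against 0.148% of all 141767 annotated transcripts. A poly(A) signal was defined as AATAAA or ATTAAA in the last 50 bases, which 33.7% of all transcripts hold. Sequence past the annotated transcript ends was not searched. A transcript model that stops before its stem-loop or signal therefore counts as having none. The 16 letters read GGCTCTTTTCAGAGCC in 25 members, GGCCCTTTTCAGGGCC in 7 and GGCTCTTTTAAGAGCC in 6. The windows below, from the GENCODE transcripts and written 5′ to 3′ as DNA, are those of 4 of the 6 leading members, of the most counted H3 gene and of the member with the lowest p, with the stem-loop in capitals:
Hist3h2ba, H2B: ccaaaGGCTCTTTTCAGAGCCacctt
Hist3h2a, H2A: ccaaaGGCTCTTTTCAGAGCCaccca
Hist1h1c, H1: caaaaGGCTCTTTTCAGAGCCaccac
Hist1h4i, H4: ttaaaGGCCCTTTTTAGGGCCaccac
Hist1h3c, H3: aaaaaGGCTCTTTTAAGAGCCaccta
Hist1h2bg, H2B: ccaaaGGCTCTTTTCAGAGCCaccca
Hist1h4i and Hist1h3c differ from the commonest form within the stem or the loop, and the other 4 share its 16 letters.

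The next windows are the 3′ ends of the annotated transcripts that hold a poly(A) signal, with the signal in capitals:
Hist2h2be, H2B: tattattattAATAAAgttaccgatt
Hist3h2ba, H2B: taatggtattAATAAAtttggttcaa
Hist3h2a, H2A: gtatatgcccAATAAAataagagtac
Hist1h1c, H1: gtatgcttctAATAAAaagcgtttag
Hist1h4i, H4: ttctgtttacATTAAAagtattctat
The signal began between 21 and 34 bases from the transcript end in these 5. Hist3h2ba ran on for 169 bases past its stem-loop, Hist1h4i for 330, Hist1h1c for 840 and Hist3h2a for 1643. The annotated Hist2h2be transcript of 2620 bases held no stem-loop match. The 5 members shown here were among the 6 with the highest CPM in these libraries.

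Few histone counts were seen at all. The 70 genes together had 3659 and 4249 counts in WT replicates 1 and 2 and 3542 and 3877 in KO replicates 1 and 2. That is 0.0158% (exact 95% interval 0.0153 to 0.0163) and 0.0155% (0.0151 to 0.0160) of the WT counts, and 0.0143% (0.0139 to 0.0148) and 0.0184% (0.0178 to 0.0190) of the KO counts. These intervals cover counting error only. In all, 61 members had a count in at least 1 library, 20 had at least 10 counts in every library, and 38 averaged under 10 counts. A count of 0 in 1 library allows up to 3 counts, or 0.110 to 0.142 CPM by library totals alone, depending on the library.

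The 6 leading genes, namely Hist2h2be, Hist3h2ba, Hist1h1c, Hist1h4i, Hist3h2a and Hist1h2bc, took 79.2% and 79.0% of the members' counts in the WT libraries and 76.2% and 84.7% in the KO libraries. Levels below are CPM scaled with edgeR's TMM factors (normalised CPM), and levels per length are the same values per kilobase of the deposited gene length (normalised RPKM). The lowest of the 6 averaged 6.47 normalised CPM and the next member, Hist1h2ae, 2.90. Per length the order changed. Hist3h2ba led with 58.3 RPKM, followed by Hist1h4i with 19.9, Hist2h2be with 17.3 and Hist1h1c with 11.4, each a mean over the 4 libraries. Hist1h2bc came next with 5.60 RPKM, and Hist3h2a stood at 3.60, behind 3 genes of few counts. Replication-independent variants, which are made outside S phase too and have tailed RNA, spanned a wide range. H3f3b, which encodes H3.3, averaged 296 RPKM and H2afz, which encodes H2A.Z, 232. Cenpa, which encodes the centromeric H3, averaged 15.1 and H1fx 15.7 over the 4 libraries, below Hist3h2ba, Hist1h4i and Hist2h2be. The H1fx mean was 6.84 RPKM in WT and 24.5 in KO. In KO it thus stood above Hist1h4i (18.2) and Hist2h2be (18.4).

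**Figure D1:**
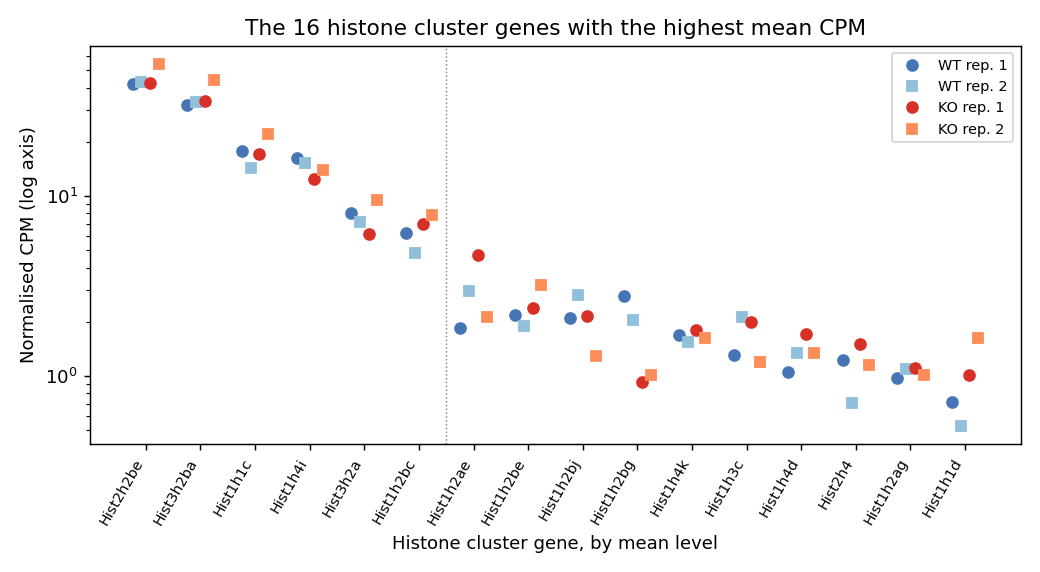
Normalised CPM (log axis) of the 16 histone cluster genes with the highest mean level, 1 point per library (circles replicate 1, squares replicate 2; blue WT, red and orange KO). The 6 genes left of the dotted line average 6.47 CPM or more, and KO replicate 2 is the highest library for 5 of them.

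The members were split by how their annotated transcript ends. The 17 whose transcript has a poly(A) signal in its last 50 bases held 81.0% of the members' counts over the 4 libraries, and 5 of the 6 leading genes were among them. The 14 that run over 50 bases past the stem-loop without such a signal held 6.29%, and the 18 that end near the stem-loop 4.78%. The 21 with neither feature in their annotated bases held 7.93%, and this set may hold models that stop short of either feature. Hist1h2bc, whose annotated transcript is spliced, was the 1 leading gene in the last set. Per length, the typical member did not stand higher where a signal was annotated. The median level was 0.543 RPKM with a signal and 0.444 for transcripts that run on. It was 0.613 for those that end near the stem-loop and 0.599 for those with neither. By counts the typical member did stand higher, with a median of 21.75 with a signal and 13.5, 6.875 and 5.5 in the other sets, in the same order. The sets also differed in median gene length, at 1560, 1079, 481 and 393 bases. These medians include members with 0 counts. Most of the first set's share came from its 5 leading genes. Of the 65 members with 1 annotated transcript, all 65 had the same length in the deposited table, though the table was counted on a later annotation release.

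**Figure D2:**
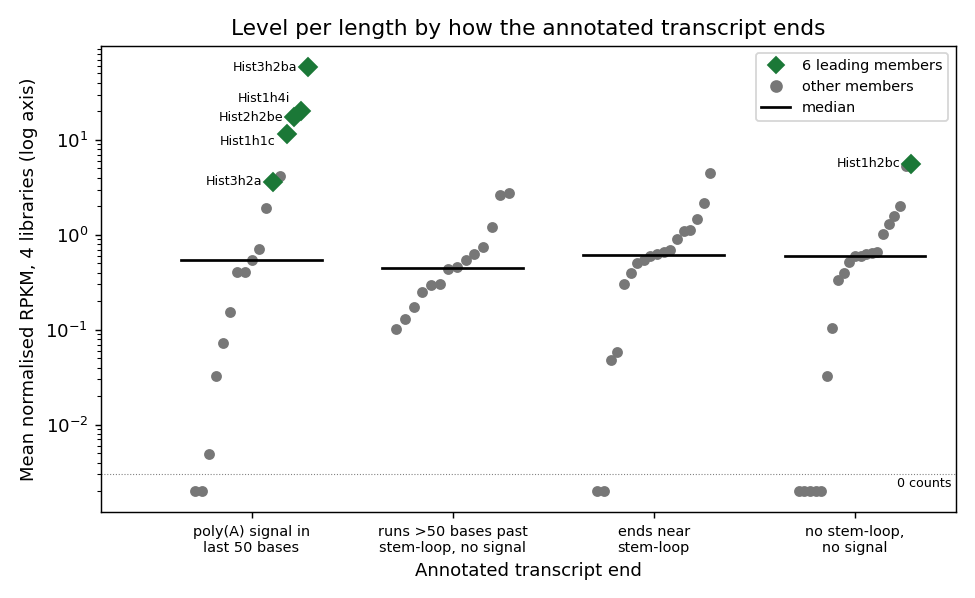
Mean normalised RPKM over the 4 libraries (log axis) of each histone cluster gene, grouped by the end of its annotated transcript; bars are medians, diamonds the 6 leading genes, and points under the dotted line had 0 counts. Medians of the 4 sets lie between 0.444 and 0.613 RPKM, and 5 of the 6 leading genes sit in the set with a poly(A) signal.

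Reads that cannot be placed bear on these levels. Per the file headers, the counting command had no option for fragments that map to several places or touch several genes, so such fragments were not counted. Exons of all 20 H2A members overlapped another annotated model, for 19 of them a model of 129 to 144 bases annotated as a miRNA, against 6 of the 50 members of the other classes. The overlapped part ranged from 9.91% to 100% of the H2A exons. Their counts therefore cover only fragments clear of the overlap. For Hist2h2aa1, Hist2h2aa2, Hist2h3c1, Hist2h3b and Hist2h2bb, exons of other annotated models covered every base, and all 5 had 0 counts in every library. The other 4 members at 0 throughout were Hist2h2ab and the testis-type genes Hist1h1t, Hist1h2aa and Hist1h2ba. Another model covered 68.2% of the Hist2h2ab exon bases, so only fragments clear of it could be counted for that gene. With this counting the 5 wholly overlapped genes could not be measured, and their zeros say nothing of their transcription.

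The targeted gene was checked first in the comparison of KO with WT. Chaf1b had 660 and 900 counts in the WT libraries and 276 and 320 in the KO libraries, or 27.8, 31.7, 12.2 and 14.8 normalised CPM. Both KO libraries lay below both WT libraries, for a log2 fold change of -1.14 ± 0.16 (SE, here and below from the fit) and an edgeR quasi-likelihood adjusted p of 0.267. The gene did not pass the threshold of 0.05 in this fit, which has 2 residual degrees of freedom. The count covers all annotated exons, so it does not show which exons were lost. In bulk libraries, fewer cells that express a gene and less RNA per cell cannot be told apart.

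The summed level of histone cluster RNA differed between WT and KO by less than the spread of the KO libraries. Over the 70 genes the sum was 154.3 and 149.7 normalised CPM in WT and 156.0 and 179.2 in KO, or 152.0 ± 3.20 against 167.6 ± 16.4 (SD, n = 2). WT replicate 1 and KO replicate 1 were close, and KO replicate 2 was the highest. Of the 70 genes, 30 had enough counts to enter the test, and 40 did not. None of the 30 passed with edgeR's quasi-likelihood test, where 0.00664% of all 15070 tested genes (1 gene) did; 1 member, Hist1h2bg, had an unadjusted p under 0.05, against 16.8% of all tested genes. DESeq2 called 0 members, where 3.07% of all genes were called, and limma-voom called 0. With DESeq2, 1 member had an unadjusted p under 0.05, against 15.6% of all genes. Hist1h1a, a member of few counts, got no adjusted p from DESeq2, and a gene without one could not be called. Such genes count as not called in the 3.07%. The log2 fold change lay above 0 for 19 members and below 0 for 11, with a median of 0.13 beside -0.003 over all tested genes. By replicate number, 11 members were higher in both KO libraries than in the WT library of the same number, 6 were lower in both, and 13 differed in direction. For this split the shares over all tested genes were not taken. Both KO libraries lay above both WT libraries for 5 members and below for 4, against 27.9% and 28.4% of all tested genes. The precision was low: standard errors ran from 0.15 to 0.84 on the log2 scale and exceeded 0.3 for 24 of the 30.

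**Figure D3:**
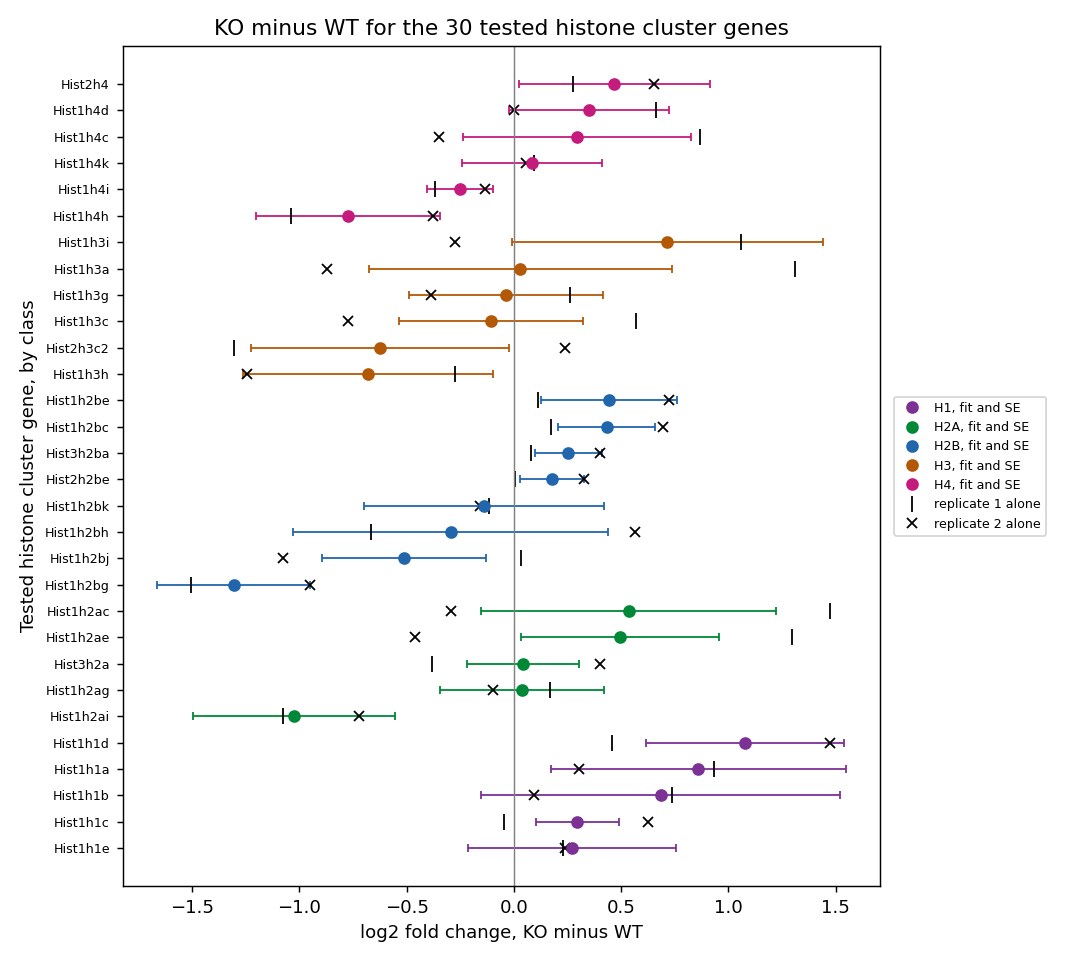
log2 fold change, KO minus WT, of the 30 tested histone cluster genes by class; points and bars are the edgeR fit and its SE, vertical ticks the difference of the replicate 1 libraries and crosses that of the replicate 2 libraries. Fitted values run from -1.31 (Hist1h2bg) to 1.08 (Hist1h1d), and ticks and crosses lie on opposite sides of 0 for 13 genes.

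Leaving out either KO library changed which members were called. Without KO replicate 1, Hist3h2ba was called higher (log2 fold change 0.44, edgeR adjusted p = 0.0379), where 1.09% of all genes were called higher, and the members' median turned to -0.18. Without KO replicate 2, Hist1h2bg was called lower (-1.38, edgeR adjusted p = 0.0420) and Hist1h3e, an H3 gene, higher (2.28, edgeR adjusted p = 0.0281), where 16.5% of all genes were called lower and 15.8% higher. Hist1h3e had 5 and 9 counts in WT and 30 and 5 in KO, so that call rests on KO replicate 1. The gene was not among the 30 members tested in the filtered fit on all 4 libraries. Without a filter on low counts, Hist1h2bg was called lower (-1.31, edgeR adjusted p = 0.0400), as were 3.22% of all genes tested there. A fit without 1 KO library has a single KO library, which is assumed to vary as the WT libraries do. Genes were filtered anew in such a fit, so 35 members were tested without KO replicate 1 and 39 without KO replicate 2. The median of -0.18 thus covers a different set of members from the median of 0.13 in the filtered fit on all 4 libraries. Of the 6 leading genes, 5 were highest in KO replicate 2. Of the other 55 genes with counts, 23 were highest in KO replicate 1, 16 in WT replicate 1, 9 in KO replicate 2 and 7 in WT replicate 2. Many of these 55 had few counts, and the share of all genes highest in each library was not taken. The 64 minor genes summed to 32.1 and 31.5 normalised CPM in WT and to 37.2 and 27.4 in KO.

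Of the H1 genes, which make the linker histone that binds DNA between nucleosomes, 5 of 6 were tested. All 5 had a log2 fold change above 0, between 0.27 and 1.08, and none passed. Hist1h1c (H1.2; chromosome 13, 23738808 to 23740367) held most of the class, at 17.7 and 14.3 normalised CPM in WT and 17.1 and 22.2 in KO. Its groups overlapped, with a log2 difference of 0.30 ± 0.20 (edgeR adjusted p = 0.450). Hist1h1d (H1.3) had the highest fold change of any tested member, on 17 and 15 counts in WT and 23 and 35 in KO. Both KO libraries lay above both WT libraries, by 1.08 ± 0.46 on the log2 scale (edgeR adjusted p = 0.304). Its annotated transcript of 7425 bases runs 4884 bases past the stem-loop, so its level per length was low, at 0.131 RPKM. Hist1h1a (H1.1) had 10 and 7 counts in WT and 20 and 7 in KO, with a log2 difference of 0.86 ± 0.69 (edgeR adjusted p = 0.527), and its value turned to -0.03 without KO replicate 1. Hist1h1b (H1.5) and Hist1h1e (H1.4) had 5 to 22 counts a library. The class summed to 19.98, 15.79, 20.7 and 24.9 normalised CPM in WT replicates 1 and 2 and KO replicates 1 and 2. The replication-independent linker histone genes H1f0 and H1fx lie outside the clusters; H1f0 stood at 56.3 and 84.3 normalised CPM in WT and 203 and 275 in KO (log2 fold change 1.77 ± 0.24, edgeR adjusted p = 0.267 in the fit without a replicate term), and the difference between this change and those of the cluster genes was not tested.

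The H2A and H2B genes make the 2 histones that form the outer dimers of the nucleosome, and they often lie head to head as pairs. Of 20 H2A genes 5 were tested, 4 with a log2 fold change above 0 and 1 below, and none passed. Hist3h2a (chromosome 11, 58954685 to 58956830) stood at 8.05 and 7.19 normalised CPM in WT and at 6.17 and 9.52 in KO. The KO libraries lay on either side of the WT libraries, and the log2 fold change was 0.04 ± 0.26 (edgeR adjusted p = 0.944), a sign that flips to -0.02 when libraries are scaled by their totals. Exons of Trim17 and of another model cover 33.0% of its bases. Hist1h2ae had 44 and 84 counts in WT and 106 and 46 in KO, highest in KO replicate 1 and overlapping between groups (0.49 ± 0.46, edgeR adjusted p = 0.589). Hist1h2ai, of whose 100-base windows 88.4% recur in other genes' transcripts, overlapping models included, had 22 and 21 counts in WT and 9 and 9 in KO. Both KO libraries were below both WT libraries, by -1.02 ± 0.47 (edgeR adjusted p = 0.322). The class as a whole varied little, at 14.0, 14.9, 14.9 and 15.2 normalised CPM.

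H2B genes gave 60.6% of all histone cluster counts. Hist2h2be (chromosome 3, 96221119 to 96223738), the member with the most counts, stood at 42.1 and 43.1 normalised CPM in WT and 42.3 and 54.2 in KO. The first 3 libraries were alike and KO replicate 2 was higher, for a log2 difference of 0.18 ± 0.15 (edgeR adjusted p = 0.543) that became -0.02 without KO replicate 2. Hist3h2ba (chromosome 11, 58948920 to 58949533) had the same shape, at 31.9 and 33.4 normalised CPM in WT and 33.7 and 44.1 in KO, though here both KO libraries lay above WT (0.25 ± 0.16, edgeR adjusted p = 0.421). Without KO replicate 2 its log2 fold change was 0.04. Hist1h2bc, taken up because it completes the 6 leading genes, stood at 6.20 and 4.83 normalised CPM in WT and 7.004 and 7.86 in KO (0.43 ± 0.23, edgeR adjusted p = 0.363). The other way went Hist1h2bg (chromosome 13, 23571396 to 23572013), with 66 and 58 counts in WT and 21 and 22 in KO, or 2.78, 2.04, 0.925 and 1.02 normalised CPM. Its KO libraries were close to each other and well below both WT libraries, with a log2 difference of -1.31 ± 0.36 (edgeR adjusted p = 0.267). Of its 100-base windows, 44.9% recur in other transcripts, so fragments that lie wholly in shared sequence may not have been counted. Its neighbour on the other strand is Hist1h2ae, whose KO and WT libraries overlapped. Over the 8 tested H2B genes, 4 log2 fold changes lay above 0 and 4 below.

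H3 genes, which make the histone that with H4 forms the tetramer handled by chromatin assembly factor 1, were the least counted class, with 3.87% of the members' counts. The 12 genes together had 134 and 184 counts in WT and 188 and 87 in KO, or 5.65, 6.48, 8.28 and 4.02 normalised CPM. KO replicate 1 was the highest library and KO replicate 2 the lowest, so the mean was 6.07 ± 0.59 in WT and 6.15 ± 3.01 in KO (SD, n = 2). Hist1h3c, the most counted, had 31 and 60 counts in WT and 45 and 26 in KO (-0.11 ± 0.43, edgeR adjusted p = 0.912). Hist1h3h had 27 and 25 in WT and 21 and 7 in KO (-0.68 ± 0.58, edgeR adjusted p = 0.558). Hist1h3i had 11 and 10 in WT and 24 and 6 in KO, with a log2 difference of 0.72 ± 0.72 (edgeR adjusted p = 0.620). The 2 KO libraries differed more from each other than the groups did in each of these 3 genes. Of 6 tested H3 genes, 2 lay above 0 and 4 below, and none passed.

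H4 genes, which make the partner of H3, summed to 23.6 and 22.0 normalised CPM in WT and 20.5 and 20.7 in KO, or 22.8 ± 1.14 against 20.6 ± 0.13 (SD, n = 2). This was the 1 class whose sum was lower in both KO libraries. The H1, H2A and H2B sums were higher in both, though for H2A and H2B KO replicate 1 lay barely above WT. The sum follows Hist1h4i (chromosome 13, 22040636 to 22041362), which stood at 16.2 and 15.3 normalised CPM in WT and 12.5 and 14.0 in KO. Both KO libraries lay below both WT libraries, but the log2 fold change of -0.25 ± 0.16 did not pass (edgeR adjusted p = 0.423). Hist1h4h had 30 and 28 counts in WT and 13 and 16 in KO, again without overlap (-0.77 ± 0.43, edgeR adjusted p = 0.379). Hist1h4k, the second most counted, stood at 1.69 and 1.55 normalised CPM in WT and 1.81 and 1.62 in KO. Its log2 fold change was 0.08 ± 0.33 (edgeR adjusted p = 0.911), and -0.003 with library totals. Of the 6 tested H4 genes, 4 lay above 0 and 2 below, so the class sum and the class's median log2 fold change of 0.19 differ in sign.

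**Figure D4:**
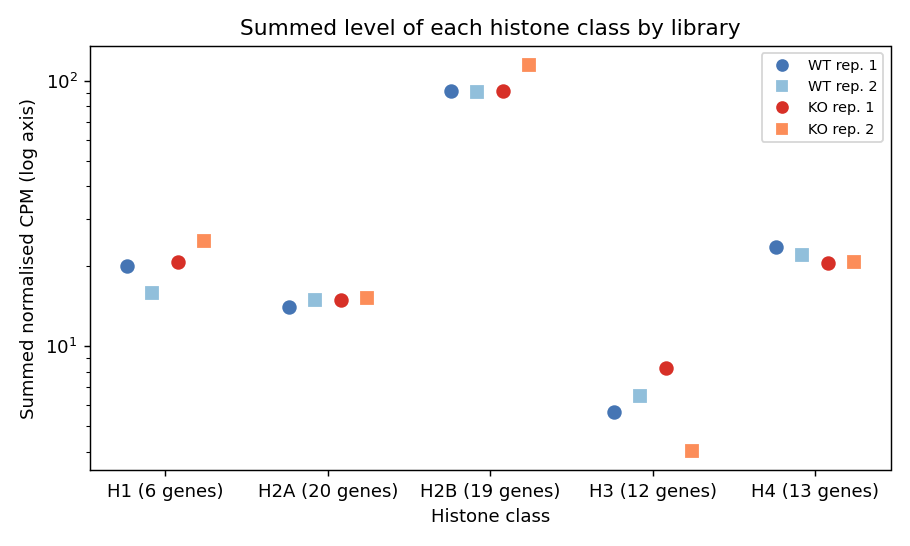
Summed normalised CPM (log axis) of each histone class in the 4 libraries, 1 point per library (circles replicate 1, squares replicate 2; blue WT, red and orange KO). H4 is lower in both KO libraries, while for H3 the 2 KO libraries are the highest and the lowest of the 4. H1, H2A and H2B are higher in both KO libraries, for H2A and H2B barely so in KO replicate 1.

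By cluster, Hist1 gave 42.9% of the members' counts, Hist2 29.6% and Hist3 27.3%, the last 2 each led by a single H2B gene. Hist1 summed to 69.1 and 64.1 normalised CPM in WT and 71.8 and 68.9 in KO, Hist2 to 44.5 and 44.6 against 44.2 and 56.2, and Hist3 to 40.5 and 40.8 against 40.0 and 53.9. In none of these 3 clusters were the groups apart. Within Hist1 the genes form 3 blocks separated by wide gaps. The first (chromosome 13, 21715763 to 21837530), with 19 genes, summed to 8.01 and 6.03 normalised CPM in WT and 8.15 and 5.55 in KO. The second (22035164 to 22043676), with 5 genes including Hist1h4i, summed to 19.98 and 19.7 in WT and 16.4 and 16.7 in KO. The third (23531050 to 23764406), with 29 genes including Hist1h1c and Hist1h2bc, summed to 41.1 and 38.4 in WT and 47.1 and 46.7 in KO. The second block was thus lower and the third higher in both KO libraries, while the first overlapped. No test was made on these sums. The other 3 Hist1 genes, Hist1h2aa, Hist1h2ba and the distant pseudogene Hist1h2al, had 1 count between them.

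**Figure D5:**
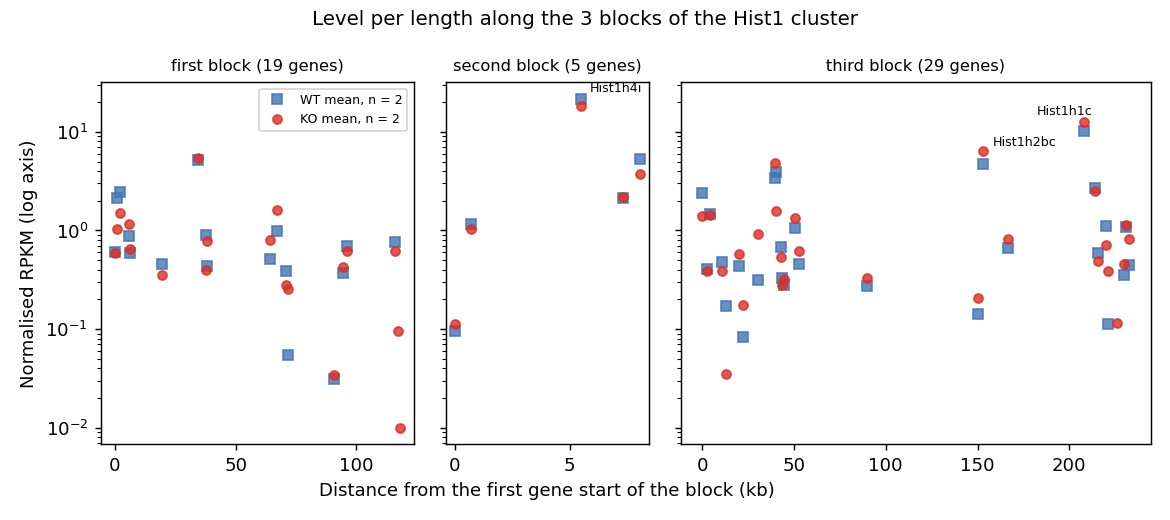
Normalised RPKM (log axis, mean of 2 libraries; blue squares WT, red circles KO) of the genes in the 3 blocks of the Hist1 cluster, against the distance in kb from the first gene start of each block. A group at 0 has no point; Hist1h4i stands above all others of its block, and most other genes lie under 10 RPKM in both groups.

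The genes that make, process and deliver histones were read as a list of 41, of which 40 were tested. None passed with edgeR's quasi-likelihood test, 19 had a log2 fold change above 0 and 21 below, with a median of -0.01, and 7 had an unadjusted p under 0.05, where 16.8% of all tested genes did. DESeq2 called 2 of them lower, Cdk2 and Chaf1b, where it called 3.07% of all genes. Among the factors for transcription, Npat, the coactivator that starts histone transcription at S phase entry, stood at 63.9 and 62.9 normalised CPM in WT and 68.5 and 60.2 in KO (0.02 ± 0.12, edgeR adjusted p = 0.932, and -0.06 with library totals). Casp8ap2, which works with Npat, differed by -0.04 ± 0.11, and Hinfp, which activates H4 genes, by -0.19 ± 0.13. Among those for 3′ end processing, Slbp stood at 132 and 126 normalised CPM in WT and 103 and 112 in KO. Both KO libraries were lower, by -0.27 ± 0.11 (edgeR adjusted p = 0.2996). The U7 proteins Lsm10 and Lsm11 differed by -0.06 ± 0.19 and -0.003 ± 0.21, the latter turning to 0.003 with DESeq2's size factors. Eri1, the nuclease that trims and degrades histone RNA ends, stood at 118 and 119 normalised CPM in WT and 175 and 141 in KO (0.42 ± 0.14, edgeR adjusted p = 0.267). Both KO libraries were above WT, and KO replicate 1 was the highest. Chaf1a, the p150 partner of Chaf1b, stood at 54.3 and 53.0 in WT and 74.4 and 54.2 in KO, high in KO replicate 1 alone (0.26 ± 0.17, edgeR adjusted p = 0.442).

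Measures that could move with histone RNA were set beside it. The 19 marker genes of dividing cells, all tested, summed to 4213 and 4032 normalised CPM in WT and 5729 and 4374 in KO. KO replicate 1 was the highest; 14 had a log2 fold change above 0, none passed with edgeR and 4 had an unadjusted p under 0.05, where 16.8% of all tested genes did. Of 8 RNAs that carry no tail, 6 were at 0 in all libraries and Rnu12 had at most 2 counts, so the list rested on Rn7sk, the RNA of the 7SK particle. Rn7sk had 39 and 72 counts in WT and 170 and 59 in KO, again highest in KO replicate 1. The replication-independent histone variants summed to 3070 and 3068 normalised CPM in WT and 3405 and 3592 in KO; 8 of the 10 had a log2 fold change above 0 and none passed in the edgeR fit without a replicate term. The summed macrophage and granulocyte markers were lower in both KO libraries, but of the 4 tested 2 had a log2 fold change above 0 and 2 below, and Csf1r stood at 0.590 and 0.811 normalised CPM in WT and 2.56 and 1.34 in KO. The summed markers of DP thymocytes were higher in both, at 23002 and 18555 normalised CPM against 17880 and 17559. The double-negative markers stood at 18.6 and 16.4 normalised CPM in WT and 31.5 and 23.4 in KO, and the mature single-positive markers at 169 and 153 against 249 and 201. Alb, a liver transcript, took 0.026% and 0.00586% of the WT counts and 0.0267% and 0.000342% of the KO counts. The part of any of these in the histone values was not tested.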

How the data were processed

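RNA-seq was done on 2 WT and 2 KO libraries. The submitters' processing notes name GRCm38, HISAT2, Trim Galore 0.5.0, FastQC, DESeq2 and featureCounts 1.6.4. What the authors deposited are raw counts of fragments over the exons of each gene, with the gene's length in bases; per the file headers, featureCounts 1.6.3 made them on Ensembl annotation 98 without strand. Symbols, transcripts and sequences came from GENCODE M21, an earlier release; 55154 of 56239 gene IDs (98.1%) matched.

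In R 4.3.3, genes were filtered with edgeR 4.0.16's filterByExpr (15070 kept), given TMM factors (0.9195 to 1.037) and compared by the quasi-likelihood F test, KO minus WT, no covariate, Benjamini-Hochberg adjustment, threshold 0.05; the steps were tested on simulated counts. DESeq2 1.42.0 and limma 3.58.1 (voom), other scalings and filters, robust dispersion, a replicate term and leaving out each library were alternatives. Differences by replicate number were taken between log2 CPM values (prior count 2).

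Members, the 41 supply genes and the marker lists were chosen with earlier results of these data known. Of the listed marker genes, 1 is not reported here and was left out of its list's sum. Named were every member past the threshold, the 2 with the highest CPM in each class, the 3 highest and 3 lowest fold changes among tested members, each supply gene past the threshold and Chaf1b, Chaf1a, Slbp, Npat, Casp8ap2, Lsm10, Lsm11, Hinfp and Eri1; other genes with values were named after these were seen.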

Additional observations from a re-analysis of the deposited data

Results flagged for a closer look

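Among the class sums and the genes named by the rule above, 4 results differed between KO and WT in opposite directions in the 2 sexes. The difference was over 0.3 on the log2 scale in both the replicate 1 libraries (female) and the replicate 2 libraries (male). There is 1 KO and 1 WT library per sex, so these differences between the pairs were not tested, and sex, day and library cannot be told apart. The summed H3 genes were higher in KO by 0.55 (log2) among the female libraries and lower, at -0.69, among the male ones. Hist1h2ae, an H2A gene, differed by 1.29 in the female and -0.46 in the male libraries. Hist1h3c, an H3 gene whose counts are part of the H3 sum, differed by 0.57 and -0.77. Hist3h2a, an H2A gene, went the other way, at -0.38 in the female and 0.40 in the male libraries. How large a share of all tested genes met this limit was not taken. Members outside those named by the rule also met it. Among them were Hist1h3a (1.31 in the female and -0.87 in the male libraries), Hist1h4c (0.87 and -0.35) and Hist1h2bh (-0.67 and 0.56).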

How the results depend on the processing

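Across the table edgeR called 1 gene; no filter on low counts gave 1465, DESeq2 462 and the replicate block 483 (152 higher, 331 lower), and leaving out 1 library gave 1 to 5148. Of the members, 0 were called; no filter gave 1 (Hist1h2bg, lower, edgeR adjusted p = 0.0400), and leaving out 1 library gave 0 to 2. Supply genes called were 0, but 5 without a filter, 2 with DESeq2, 1 (Chaf1b) with the replicate block and 0 to 17 with 1 library left out. The members' median log2 fold change of 0.13 ran from -0.18 to 0.19 when 1 library was left out. Those fits filtered genes anew and tested 34 to 39 members rather than 30, so these medians cover different sets. The replicate block called 0 members, but H1f0 (edgeR adjusted p = 3.04e-04) and H1fx (edgeR adjusted p = 0.00144) among the replication-independent variants. Deviations from the group means of same-numbered libraries correlated at 0.472, and the numbers match the libraries by sex. No label gives a shared litter or day, so with 2 pairs the block was kept as an alternative only.

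With 1 library left out, log2 fold changes ran from -0.0254 to 1.40 for Hist1h1a, from -0.18 to 0.94 for Hist1h2ae, from -0.51 to 0.29 for Hist1h3c, from -0.54 to 1.37 for Hist1h3i, from -0.0156 to 0.35 for Hist2h2be, from -0.31 to 0.33 for Hist3h2a, from -0.19 to 0.0722 for Lsm10, from -0.31 to 0.25 for Lsm11 and from -0.0682 to 0.11 for Npat. Library totals, which moved the median of all genes to -0.08, gave -0.00302 for Hist1h4k, -0.0238 for Hist3h2a and -0.0629 for Npat. Lsm11 was 0.00262 with DESeq2's size factors in edgeR and 0.00229 with DESeq2. The cause of these changes was not tested. Over the named genes and the alternatives run, 252 values kept direction and side of the threshold, 18 changed sign, 12 newly passed and 1 moved. Depth limits the members: 38 of 70 averaged under 10 counts.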
